A study of Homo sapiens with 6 samples.

Results

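Human cells carry, beside the genes for the standard ribosomal proteins, a few genes that encode close relatives of them. RPL7L1, RPL22L1, RPL26L1, RPL36AL, RPL39L and RPS27L are 6 such paralogs, and each has a parent gene, RPL7, RPL22, RPL26, RPL36A, RPL39 and RPS27. The 6 paralogs were taken by name from the 12154 protein-coding genes of the deposited table, in which each had 1 row. RPL7L1 was chosen by its FPKM difference between the groups (its adjusted p in a fit of these same libraries), so that difference is given as a description and supports nothing. The other 5 were added as genes of the same kind. The label ribosomal protein paralog rests on gene names and sequence.

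The libraries came from a lung adenocarcinoma line given AS-tDR-007333, a fragment of tRNA-Gly-GCC (3 libraries), or a negative control, NC (3 libraries). The sample labels name A549 cells that received a tRF plasmid or an empty vector by lipofection, whereas the methods name PC9 cells that received AS-tDR-007333 or NC, so the line and the transfected molecule are not settled. Whether replicates were separate cultures is not stated, and a p-value here measures only the spread between libraries, which may be technical. All 6 epithelial markers searched were listed in the table, with EPCAM at 153 to 168 FPKM over the libraries, while 3 of the 4 lung markers had no row (NAPSA had 1, under 0.6 FPKM), nor did any of 3 endothelial markers, and 1 of 5 fibroblast markers (COL1A1) and 1 of 4 leukocyte markers (CD68) were listed.

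The fragment and the control oligo of the study's list are shown, 28 bases each, because the first names the treated group. Under the sample labels the control would be an empty vector and not this oligo.
Fragment: gcauuggugguucagugguagaauucuu
Control oligo: gagaauuuugauggccguucuguaugug

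A ribosome holds 1 copy of most of its proteins, and a paralog can take the place of its parent in some ribosomes or serve another step. RPL39L is known from the male germ line of the mouse, where it replaces RPL39 at the exit tunnel. In the mouse, RPL22L1 is kept low by RPL22, which binds its RNA. RPS27L is induced by p53 and, like RPS27, binds MDM2. RPL7L1 is a factor of large subunit assembly related to the yeast protein Rlp7 more than a component of the finished ribosome. RPL36AL and RPL26L1 encode proteins nearly identical to those of their parents.

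How far a paralog and its parent can be told apart by reads depends on sequence, which was compared in GENCODE release 44 mapped to GRCh37. RPL7L1 and RPL7 were the most distant pair, with 43.5% identical residues and a longest run of identical bases of 13 between any of their transcripts. RPL22L1 and RPL22 shared 73.8% of residues and a run of 17 bases. The proteins of RPL36AL and RPL36A differed at 1 of 106 residues, those of RPL26L1 and RPL26 at 2 of 145, those of RPS27L and RPS27 at 3 of 84, and those of RPL39L and RPL39 at 4 of 51. The longest identical run was 63 bases for RPL36AL and RPL36A, 67 for RPL39L and RPL39, and 20 for RPL26L1 and RPS27L with their parents. The FPKM of RPL36AL and RPL39L and of their parents are therefore uncertain, since reads could be split between the genes. The same release lists 61 pseudogenes named after RPL7, 52 after RPL36A, 30 after RPS27, 22 after RPL22, 19 after RPL39, 17 after RPL26 and 12 after RPL7L1, which can share reads with these genes too.

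The coding sequences of the RPL39L pair are shown as those closest to each other, 156 bases each, with the 8 bases that differ in capitals.
RPL39L: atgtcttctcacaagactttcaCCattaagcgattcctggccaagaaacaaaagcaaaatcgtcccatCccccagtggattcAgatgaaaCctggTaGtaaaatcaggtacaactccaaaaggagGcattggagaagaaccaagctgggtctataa
RPL39: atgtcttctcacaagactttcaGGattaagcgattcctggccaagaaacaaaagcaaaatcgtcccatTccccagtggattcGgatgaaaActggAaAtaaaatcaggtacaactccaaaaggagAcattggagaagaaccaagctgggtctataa
The coding sequences of the RPS27L pair, 255 bases each, differ at 56 bases in capitals while their proteins differ at only 3 residues, as an example of nearly the same protein written with different bases (RPL26L1 and RPL26 are another, with 69 of 438 bases and 2 residues differing).
RPS27L: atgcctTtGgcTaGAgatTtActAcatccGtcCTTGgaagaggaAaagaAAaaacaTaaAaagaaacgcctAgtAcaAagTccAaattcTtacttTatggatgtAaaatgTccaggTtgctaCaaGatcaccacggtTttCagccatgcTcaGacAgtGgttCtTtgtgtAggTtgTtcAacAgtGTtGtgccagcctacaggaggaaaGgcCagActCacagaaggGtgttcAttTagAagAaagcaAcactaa
RPS27: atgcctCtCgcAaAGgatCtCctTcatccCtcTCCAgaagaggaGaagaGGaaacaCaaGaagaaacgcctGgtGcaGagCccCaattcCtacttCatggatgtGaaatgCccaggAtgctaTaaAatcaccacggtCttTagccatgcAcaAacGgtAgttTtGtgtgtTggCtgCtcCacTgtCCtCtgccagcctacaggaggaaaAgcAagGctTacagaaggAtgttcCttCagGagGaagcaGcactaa

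RPL7L1 (ENSG00000146223) is a plus-strand gene of chromosome 6 (GRCh37, 42847356 to 42857663), and no other gene of GENCODE release 44 overlaps it. Its main transcript has 6 exons and 4499 bases, of which 768 are coding. RPL7L1 was listed at 9.07, 9.60 and 9.79 FPKM in NC cells (fragments scaled to gene length and to the mapped fragments of the library, a level per length) and at 15.5, 16.1 and 15.7 FPKM in AS-tDR-007333-overexpressed cells. The 3 libraries given AS-tDR-007333 lay close together, the 3 NC libraries likewise, and the gap between the groups was much wider than either spread. The ratio of the group means was 1.66. On the log2(FPKM + 1) scale, which understates changes of genes with low FPKM, the log2 fold change was 0.68 (standard error 0.05, 95% interval 0.55 to 0.80). Its adjusted p of 0.0207 from limma over 11042 genes is the value that chose it, and 0.0362% of genes were called higher at an adjusted p under 0.05. The call was lost in the Ballgown-style model (adjusted p = 0.384) and with a replicate block (limma adjusted p = 0.238). These 2 settings called 0 and 1 genes of the whole table. It was also lost on leaving out any library but NC replicate 1 (limma adjusted p = 0.0508 to 0.0904). The direction was kept. In the Ballgown-style model, which is not the study's own run, RPL7L1 had an unadjusted p of 0.00035. The study lists RPL7L1 as higher in this contrast, by a p-value not marked as adjusted. None of this is support for a gene chosen by this contrast.

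The other 5 paralogs did not pass the test, and the plot of FPKM by library shows their groups overlapping. Of these 5 paralogs, 0 had every AS-tDR-007333 library above every NC library, where 3.58% of the genes tested did. RPL26L1, on chromosome 5 from 172385732 to 172396774, was listed at 26.6, 30.7 and 28.3 FPKM in NC cells and at 30.3, 33.5 and 29.8 FPKM in AS-tDR-007333-overexpressed cells. Its NC replicate 2 lay above AS-tDR-007333 replicates 1 and 3, and the log2 fold change was 0.12 (95% interval -0.05 to 0.30, limma adjusted p = 0.9996). RPL22L1, on chromosome 3 from 170582664 to 170588272, was listed at 7.35, 8.55 and 9.04 FPKM and at 9.64, 7.74 and 8.69 FPKM. Both groups covered almost the same range, with a log2 fold change of 0.06 (95% interval -0.19 to 0.30, limma adjusted p = 0.9996) that became -0.02 without NC replicate 1.

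RPL36AL, a gene with its coding sequence in a single exon on chromosome 14 from 50085237 to 50087403, had the highest FPKM of the paralogs. Its level was 134, 151 and 155 FPKM in NC cells and 155, 137 and 148 FPKM in AS-tDR-007333-overexpressed cells. The groups had nearly the same mean, with a log2 fold change of 0.00 (95% interval -0.17 to 0.18, limma adjusted p = 0.9996), and without NC replicate 1 it was -0.06. RPL39L, on chromosome 3 from 186838736 to 186898696, was listed at 20.5, 21.6 and 21.3 FPKM and at 22.3, 20.3 and 23.4 FPKM. AS-tDR-007333 replicate 2 was the lowest of the 6 libraries and replicate 3 the highest, and the log2 fold change was 0.05 (95% interval -0.10 to 0.21, limma adjusted p = 0.9996). For the 5 paralogs other than RPL7L1, the intervals do not exclude changes as large as their bounds.

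RPS27L, on chromosome 15 from 63418071 to 63450220, was the lowest of the paralogs and the most variable one. It was listed at 2.80, 4.13 and 4.04 FPKM in NC cells and at 3.85, 3.58 and 2.90 FPKM in AS-tDR-007333-overexpressed cells, and the SD was 20.3% and 14.1% of the group mean. NC replicate 1 and AS-tDR-007333 replicate 3 were low, the other 4 libraries higher. The log2 fold change was -0.06 (95% interval -0.40 to 0.28, limma adjusted p = 0.9996), -0.20 without NC replicate 1 and -0.26 in the Ballgown-style model (adjusted p = 0.557), and its sign turned without NC replicate 2, NC replicate 3 or AS-tDR-007333 replicate 3 (0.016, 0.0034 and 0.030). Its annotated transcript is 6110 bases long with 255 coding bases, and LACTB, a mitochondrial protease-like protein, overlaps the gene on the opposite strand. The library kit keeps strand, but whether counting used it is not stated, so RPS27L is uncertain. LACTB had a log2 fold change of -0.11 (limma adjusted p = 0.9996).

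**Figure D1:**
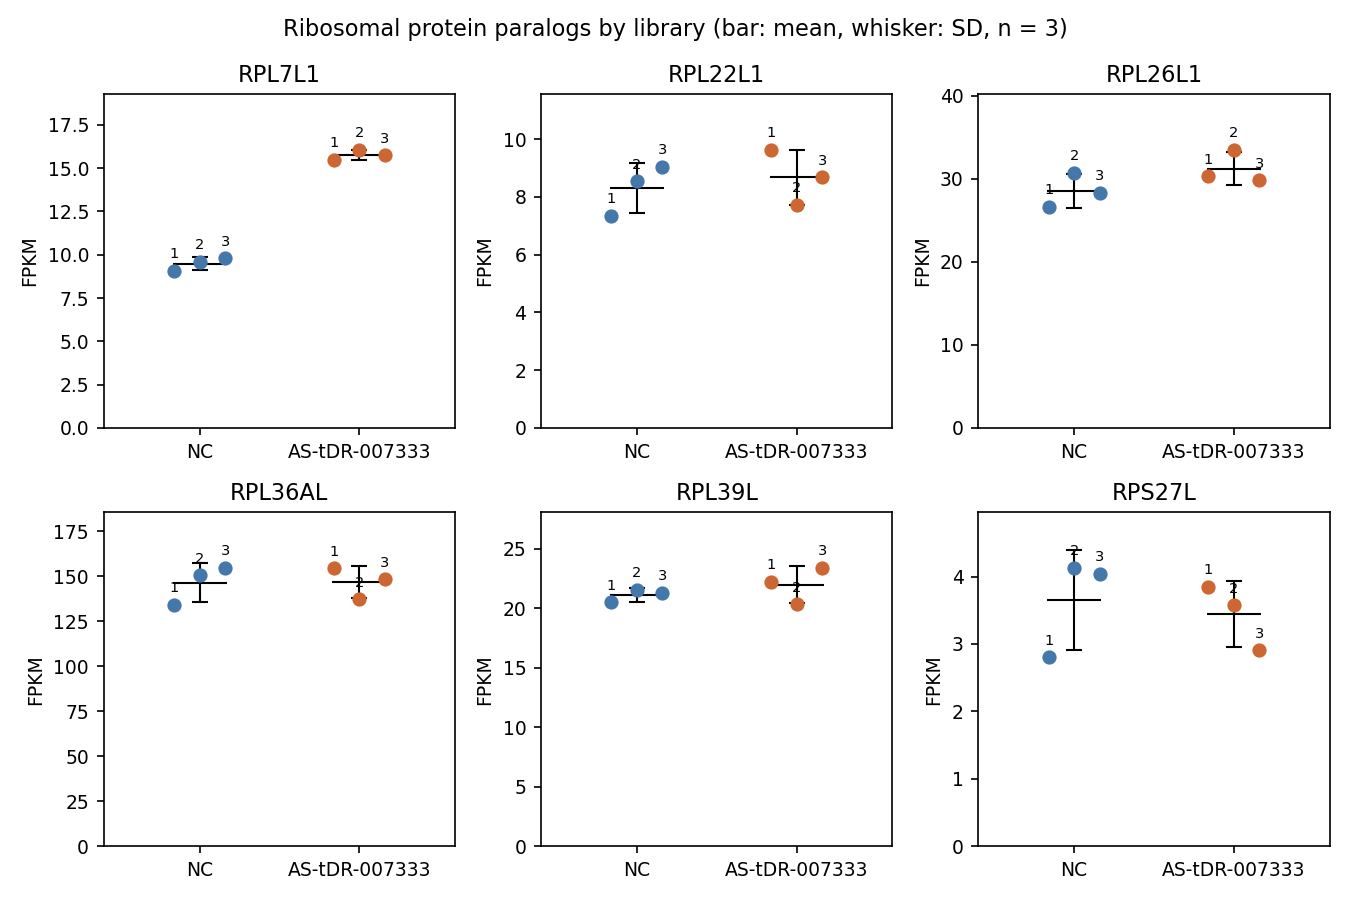
FPKM (vertical axes, from 0) of the 6 paralogs in the 3 NC and 3 AS-tDR-007333 libraries, with points for libraries numbered by replicate, bars for means and whiskers for SD (n = 3). RPL7L1 is at 9.07 to 9.79 FPKM in NC cells and at 15.5 to 16.1 FPKM in AS-tDR-007333-overexpressed cells, and the groups overlap for the other 5.

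In both groups the order of levels was RPL36AL, RPL26L1, RPL39L, RPL7L1, RPL22L1 and RPS27L. Every library of a gene lay above every library of the next gene in that order, within each group. RPL7L1 and RPL22L1 were the closest neighbours in NC cells, at 9.49 ± 0.373 and 8.31 ± 0.871 FPKM (SD, n = 3 each). With AS-tDR-007333, RPL7L1 was at 15.8 ± 0.298 FPKM and RPL22L1 at 8.69 ± 0.950 FPKM (SD, n = 3 each). Levels are per length of the gene model used for FPKM.

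Each paralog was then set against its parent in the same library, a ratio that does not depend on how a library was scaled. It does depend on the lengths of both gene models, so a percent of the parent's FPKM is not a share of transcripts. RPL7L1 stood at 7.68%, 7.91% and 7.43% of the FPKM of RPL7, a protein of the large subunit, in NC cells and at 11.7%, 10.95% and 10.0% in AS-tDR-007333-overexpressed cells. All 3 AS-tDR-007333 libraries were higher, with a difference of 0.50 in the mean log2 ratio, given without a test. The parent RPL7 itself was at 118, 121 and 132 FPKM in NC cells and at 132, 147 and 157 FPKM with AS-tDR-007333, with a log2 fold change of 0.23 (95% interval 0.04 to 0.41, limma adjusted p = 0.9996). AS-tDR-007333 replicate 1 and NC replicate 3 met at 132 FPKM, so the parent's groups overlapped slightly.

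RPL36AL had a higher listed FPKM than its parent RPL36A, at 301%, 291% and 284% of it in NC cells and at 278%, 267% and 260% in AS-tDR-007333-overexpressed cells. Both levels are uncertain, since the genes share a run of 63 bases and 52 pseudogenes are named after RPL36A. Whether RPL36AL has more transcripts than RPL36A was not tested. The 3 AS-tDR-007333 libraries were all below the 3 NC libraries, by 0.12 in the mean log2 ratio (p = 0.1 in a two-sided exact permutation test, which 3 against 3 cannot go below, and 0.5 adjusted over 5 ratios). RPL36A shares its exons with the readthrough gene RPL36A-HNRNPH2, which was listed at 5.03, 2.59 and 12.5 FPKM in NC cells and at 17.3, 13.5 and 1.10 FPKM in AS-tDR-007333-overexpressed cells. This gene varied widely within both groups. With its FPKM added to that of RPL36A, an alternative chosen after seeing the data, RPL36AL was at 231% to 277% in NC cells and at 212% to 256% with AS-tDR-007333, and the groups overlapped (exact permutation test, p = 0.2), while the difference in the mean log2 ratio was larger, at -0.20.

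For the other 4 paralogs the groups overlapped. RPL22L1 was at 9.80% to 10.9% of RPL22 in NC cells and at 8.48% to 11.2% with AS-tDR-007333 (exact permutation test, p = 0.9). RPL26L1 ranged from 21.0% to 29.1% of RPL26 in NC cells, NC replicate 1 being the high one, and from 22.3% to 24.99% with AS-tDR-007333 (exact permutation test, p = 0.8). RPL39L was at 11.1% to 13.6% of RPL39 in NC cells, again highest in NC replicate 1, and at 10.9% to 11.7% with AS-tDR-007333 (exact permutation test, p = 0.4). RPS27L had the lowest percent, at 1.34% to 1.65% of the FPKM of RPS27 in NC cells and at 1.10% to 1.39% with AS-tDR-007333 (exact permutation test, p = 0.3). Its annotated transcript has 6110 bases and that of RPS27 has 352, and the lengths used for FPKM are not stated. These 4 p-values were 0.667 to 0.9 when adjusted over 5 ratios. With 3 libraries against 3, no difference of any size could have passed this test.

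**Figure D2:**
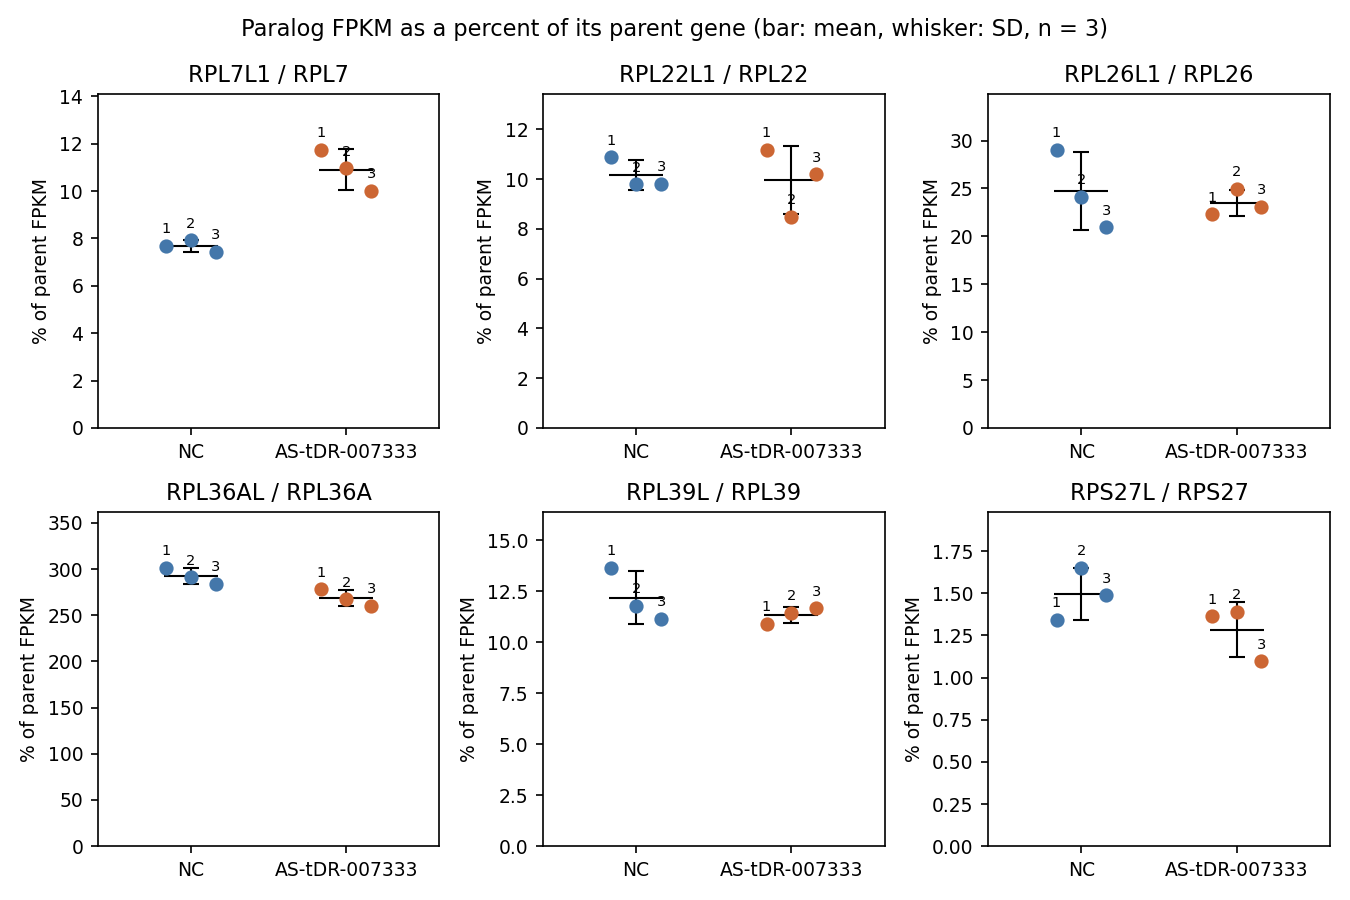
FPKM of each paralog as a percent of the FPKM of its parent gene in the same library (vertical axes, from 0), with points for libraries numbered by replicate, bars for means and whiskers for SD (n = 3). RPL7L1 is at 7.43 to 7.91% of RPL7 in NC cells and at 10.0 to 11.7% with AS-tDR-007333, while RPL36AL is at 260 to 301% of RPL36A and the other paralogs overlap between groups.

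The library NC replicate 1 stood apart, with a score of -18.0 on the first principal component of the tested genes (24.3% of the variance) against -1.53 to 9.91 for the other libraries. It was the lowest library for all 6 parents and for 5 of the 6 paralogs, RPL39L being the exception, and for 56 of the 79 ribosomal protein genes of the standard lists, while 19.2% of all genes tested were lowest there. The summed FPKM of these 79 genes was 9174, 9856 and 10475 in NC cells and 10839, 10341 and 10486 in AS-tDR-007333-overexpressed cells. Without this library the log2 fold change was 0.65 for RPL7L1 (limma adjusted p = 0.0201) and 0.19 for RPL7. That of RPL26 went from 0.19 to 0.02 and that of RPL39 from 0.16 to 0.05. The part of this library in the results was not tested further. The 6 paralogs together held 2.17% to 2.29% of the summed FPKM of the 79 genes in NC cells and 2.11% to 2.18% with AS-tDR-007333.

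**Figure D3:**
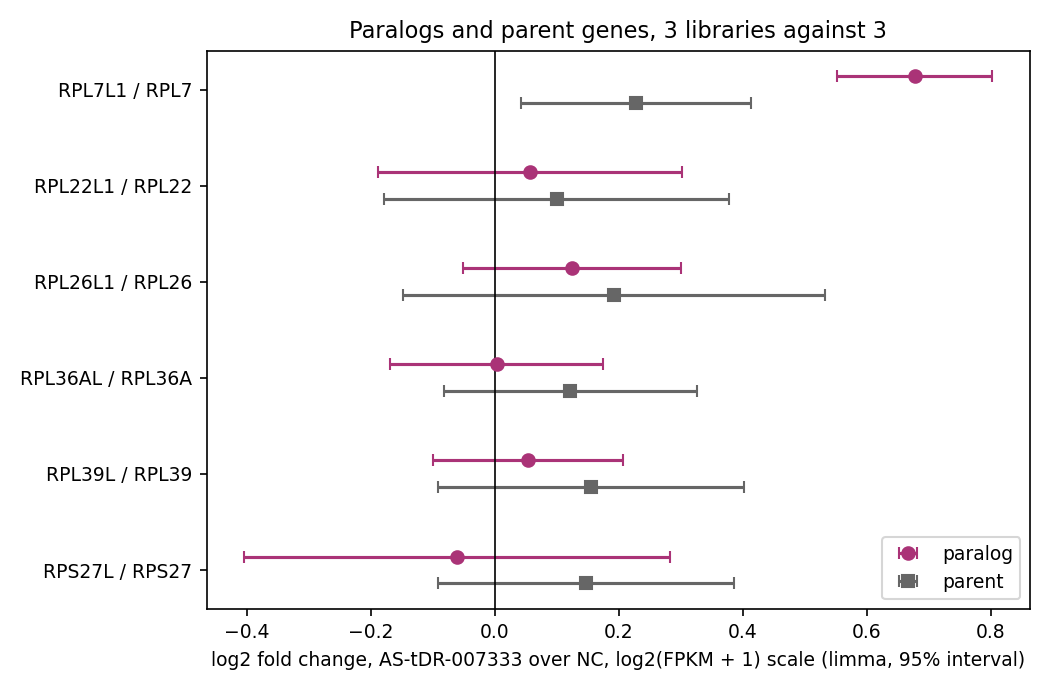
Log2 fold change of AS-tDR-007333 over NC on the log2(FPKM + 1) scale (horizontal axis) for each paralog (circles) and its parent (squares), with 95% intervals from limma, 3 libraries against 3. RPL7L1 is drawn at 0.68, the difference it was chosen by, and RPL7 at 0.23, while the intervals of the other 5 paralogs include 0.

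Genes that work with these proteins were read from lists in the same fit. None of the 47 large subunit and 32 small subunit proteins was called at an adjusted p under 0.05 by limma, which called 7 of 11042 genes. The Ballgown-style model called 0 genes of the whole table, so it could call none of these. At an unadjusted p under 0.05, limma had 4 and 4 higher and 0 lower, where 1.63% of all genes tested were higher and 1.98% lower. Without NC replicate 1 these counts were 0 higher and 1 lower for the large subunit and 2 higher and 0 lower for the small subunit, beside 277 higher and 472 lower of 11032 genes. The medians of the log2 fold changes were 0.09 and 0.11 beside -0.01 over all genes, and 0.05 and 0.05 without NC replicate 1. The log2 fold change was positive for 45 of the 47 and all 32 genes, beside 4968 of all 11042. Without NC replicate 1 it was positive for 39 and 29 of them, beside 5336 of 11032. This shared direction was not tested. RPSA, the laminin receptor protein of the small subunit, was at 133, 140 and 144 FPKM in NC cells and at 151, 155 and 155 FPKM with AS-tDR-007333 (limma adjusted p = 0.9996). Its AS-tDR-007333 libraries lay above all NC libraries, as for 6 of the 47 large subunit and 6 of the 32 small subunit genes, where 3.58% of all genes tested did so. RPL8, RPL18 and RPL37 of the large subunit had log2 fold changes of 0.12, 0.10 and 0.12, and FAU and RPS2 of the small subunit had 0.12 and 0.14.

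The lists of assembly factors had medians near 0. Of 58 factors of 60S assembly, the step RPL7L1 is assigned to, 57 were tested, 0 were called and 0 had an unadjusted p under 0.05 by limma, with a median log2 fold change of 0.00. NOP53, which helps recruit the exosome to the 60S precursor, was the one with the smallest p, at 26.7, 26.3 and 25.3 FPKM in NC cells and 27.6, 29.4 and 27.4 FPKM with AS-tDR-007333. SENP3, the nucleolar SUMO protease, was at 15.6 to 16.7 FPKM and at 12.05 to 16.2 FPKM, and its partner PELP1 and PAK1IP1 had log2 fold changes of 0.15 and -0.10. Of 58 factors of 40S assembly, 56 were tested, with 0 called, 0 at an unadjusted p under 0.05 by limma and a median of -0.01. Without NC replicate 1, 2 of them were lower at that p, beside 472 lower of 11032 genes. WDR46 was at 11.7 to 12.4 FPKM in NC cells and 11.1 to 11.3 FPKM with AS-tDR-007333, below all NC libraries. Such a full separation downward was met by 3 of the 56 factors and by 572 of the 11042 genes tested. LTV1, ESF1 and RRP36 had log2 fold changes of -0.13, -0.10 and -0.16.

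RPS27L belongs to the p53 targets, of which 27 of 29 listed genes were tested. By limma 0 were called, an unadjusted p under 0.05 was met by 2 that were higher and 0 that were lower (1 and 0 without NC replicate 1) beside 1.63% and 1.98% of all genes, and the median log2 fold change was 0.02. PHLDA3, an inhibitor of AKT, was at 9.10, 8.46 and 13.7 FPKM in NC cells and at 14.2, 13.4 and 13.6 FPKM with AS-tDR-007333, so NC replicate 3 lay among the AS-tDR-007333 libraries. ZMAT3, an RNA-binding protein, was at 1.56 to 2.13 FPKM and at 2.20 to 2.35 FPKM (log2 fold change 0.23), and TP53INP1 and BAX had -0.15 and 0.08.

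**Figure D4:**
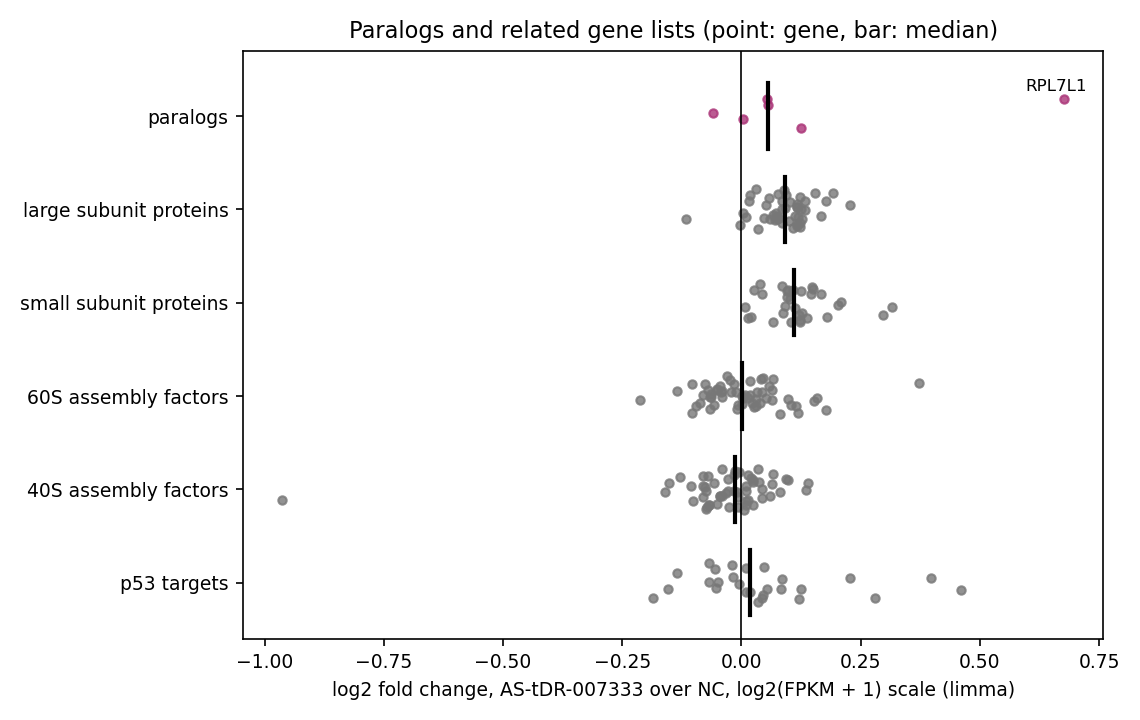
Log2 fold change of AS-tDR-007333 over NC on the log2(FPKM + 1) scale (horizontal axis) for the 6 paralogs and 5 gene lists, with a point for each gene and a bar for the median of its list. RPL7L1, at 0.68, stands to the right of the other paralogs, and the medians of the lists lie between -0.01 and 0.11. The lowest point is IMP3, at -0.96, which did not pass the test (limma adjusted p = 0.9996) and is named after its value was seen.

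The genes whose FPKM followed RPL7L1 most closely over the 6 libraries, by Pearson's r of log2(FPKM + 1), were SBF2 (0.996), HASPIN (0.993), MED29 (0.992), MPST (0.986) and MED18 (0.985). These correlations mostly restate the 2 levels by which RPL7L1 was chosen, and r takes no account of the size of a difference. SBF2, a regulator of RAB GTPases, was at 1.80 to 1.81 FPKM in NC cells and at 1.97 to 2.01 FPKM with AS-tDR-007333, a far smaller step than that of RPL7L1. HASPIN, the histone H3 kinase of mitosis, was at 2.19 to 2.30 FPKM and at 2.75 to 2.78 FPKM. MPST, a sulfurtransferase, was at 6.54 to 7.08 FPKM and at 8.75 to 9.18 FPKM. MED29 and MED18, both of the Mediator complex, went from 1.19 to 1.49 and from 2.85 to 3.82 FPKM in NC cells to 9.05 to 10.0 and to 10.0 to 11.04 FPKM.

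The promoter of RPL7L1 is shown because the study takes up ELK4, a factor of the ETS family, which binds sites with a GGAA core. The motif searched was chosen after the promoter of RPL7L1 had been read and found to hold it, so its presence there is no finding. The 300 bases from RefSeq, 250 before and 50 from the annotated start, lie on the plus strand at chr6:42879366-42879665 of GRCh38.p14, a build other than that of the files, and the motif CCGGAAG is in capitals.
RPL7L1: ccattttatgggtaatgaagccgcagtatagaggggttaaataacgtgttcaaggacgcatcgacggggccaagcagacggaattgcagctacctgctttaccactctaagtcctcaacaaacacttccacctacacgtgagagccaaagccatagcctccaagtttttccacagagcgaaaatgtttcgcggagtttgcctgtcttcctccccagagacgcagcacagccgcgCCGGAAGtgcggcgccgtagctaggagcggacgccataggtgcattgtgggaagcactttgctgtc
The motif begins 16 bases before the annotated start. Searched on both strands, CCGGAAG was found in 10.3% of 35116 promoter windows of 300 bases. Of the 12 paralog and parent genes, 10 had a window, and it was found for RPL7L1, RPS27L and RPL26. Of the genes that followed RPL7L1, MED29 and MED18 hold it, the 3 windows of SBF2 do not, and HASPIN and MPST had none to search. RPS27L and RPL26 had log2 fold changes of -0.06 and 0.19 that did not pass the test. Any link between this motif and the levels of these genes was not tested.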

How the data were processed

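RNA-seq of 6 libraries was analysed from 1 table. The authors deposited FPKM, a fragment count scaled to gene length and to the mapped fragments of the library. The methods name StringTie for trimming, HISAT2 on GRCh37 for mapping and Ballgown for FPKM. Versions in the submitters' processing notes are 2.0.5 for HISAT2 and 1.5.0-p3 for featureCounts. Counts and depth are unknown, so counting error cannot be given. The annotation release and read length are not given in the sources used here.

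From the FPKM, log2(FPKM + 1) was fitted with limma 3.58.1 (R 4.3.3, moderated variances with a trend) over the 11042 genes whose mean reached 1 FPKM, with Benjamini-Hochberg adjustment over all of them. The fit was tested on simulated data. Log2 ratios of 5 paralogs to their parents were compared with exact permutation tests, two-sided. Sequences were aligned with Biopython 1.88, and figures drawn with matplotlib 3.10.9. EMG1 had 2 rows and was left out. Alternatives were other pseudocounts, filters, scaling, denominators, a Ballgown-style model with a library term, a replicate block and leaving out each library. Members and lists were chosen with earlier results of these data known. After the data were seen, 1 list gene was renamed to its current symbol (NOP53), the library term of the Ballgown-style model was taken over the whole table in place of the tested genes, and the promoter motif and the readthrough denominator for RPL36AL were chosen. Named genes were the paralogs, their parents, the 4 lowest p-values in every list, the 5 genes most correlated with RPL7L1, and tested genes that overlap a paralog or read through a parent. IMP3 was named outside this rule, and 1 gene within it is not reported here. No 2 libraries had equal values above 0 (0 genes).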

Additional observations from a re-analysis of the deposited data

How the results depend on the processing

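RPL7L1 kept its direction in all 12 alternatives (log2 fold change 0.65 to 0.73). It was chosen by this contrast and its groups did not overlap, so the kept direction is no support. The call was lost with the replicate block (0.68, adjusted p = 0.238) and in the Ballgown-style fit (0.65, adjusted p = 0.384), and leaving out 1 library gave 0.65 to 0.70 with an adjusted p of 0.0508 to 0.0904 in 5 of 6 cases, the exception being NC replicate 1 (0.0201). The difference between the groups in the mean log2 ratio of RPL7L1 to RPL7 was 0.45 to 0.56 on leaving out 1 library. With all ribosomal proteins as denominator in place of RPL7, that difference was 0.63. In the Ballgown-style model RPL22L1 was at -0.059, RPL36AL at -0.081 and RPS27L at -0.26 (unadjusted p = 0.0253, adjusted p = 0.557). The difference in the mean log2 ratio of RPL26L1 was -0.065 against RPL26 and 0.025 against all ribosomal proteins. On leaving out 1 library, the log2 fold change was -0.020 to 0.13 for RPL22L1, -0.059 to 0.050 for RPL36AL and -0.20 to 0.030 for RPS27L. The difference in the mean log2 ratio was -0.13 to 0.073 for RPL22L1 to RPL22 and -0.18 to 0.058 for RPL26L1 to RPL26. The sign of all these uncalled values was not settled. The ribosomal list genes had 0 calls under all 12 alternatives, under which the whole table had only 0 to 18. Same-numbered libraries did not deviate together (correlations -0.0134, 0.0106 and -0.0054). No pairing by number was seen in the levels, and whether one was made is not stated. The count of called genes went from 7 to 1 with the replicate block, 0 in the Ballgown-style model (907 at an unadjusted p under 0.05) and 1 to 18 on leaving out 1 library. RPS27L lies under the 5 FPKM filter and has no value there. Depth is unknown, so what it limits could not be given.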
